A study of Mus musculus with 8 samples.

Results

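A set of 10 genes that carry fatty acids from the cell surface to acyl-CoA was followed in fibro/adipogenic progenitors (FAPs), the mesenchymal cells of skeletal muscle that can give rise to fat and scar tissue. The set holds the lipase *Lpl*, the membrane proteins *Cd36*, *Slc27a1* and *Slc27a4*, the binding proteins *Fabp4* and *Fabp5*, and the synthetases *Acsl1*, *Acsl3*, *Acsl4* and *Acsl5*. The genes, 10 of 31053 genes counted, were chosen by name for their function, but with earlier results of these data known. All 10 had counts in each of the 8 samples. FAPs were sorted from hind limb muscle of 45 days old *mdx* mice (strain C57BL/10ScSn-Dmdmdx/J), which lack dystrophin, as cells negative for CD45, CD31 and Integrin alpha-7 and positive for the surface protein SCA-1. They were divided by the amount of SCA-1 into SCA1-High-FAPs and SCA1-Low-FAPs, the control, and each population was kept for 5 days in growth medium before RNA extraction. The 4 biological replicates of each population came from 4 mice, all of them *mdx*, and no wild type sample was part of the comparison.

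Fatty acids reach a cell in several steps. Lipoprotein lipase frees them from the triglycerides of circulating lipoproteins, CD36 and the transport proteins of the SLC27 family bring them across the plasma membrane, and the fatty acid binding proteins carry them through the aqueous cytosol. The long-chain acyl-CoA synthetases then join them to coenzyme A, which holds them inside the cell and commits them to storage, oxidation or membrane lipids. In fat tissue many of these genes are known targets of the nuclear receptor PPAR-gamma, and adipocytes are rich in the products of *Lpl*, *Cd36*, *Fabp4* and *Acsl1*.

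RefSeq start sites (GRCm38.p6) matched 7 of the 10 genes, with 10 windows in all, each running from 250 bases before to 50 bases after a start. The windows of *Acsl1* and *Cd36* are shown because both genes differed between the populations in the same direction, and that of *Acsl4* because its mean moved the other way. *Acsl1* has 2 windows. The first, upstream start lies on the forward strand at chr8:46470787-46471086, at the 5′ end of the gene, and the second at chr8:46490716-46491015 lies inside it. The *Cd36* window is on the reverse strand at chr5:17835847-17836146, inside the annotated gene, and the *Acsl4* window is on the reverse strand at chrX:142390486-142390785, at the gene's 5′ end. Capitals mark matches, on either strand and with overlapping matches counted, to the GC box GGGCGG, the CCAAT box CCAAT, the nuclear receptor motif AGGTCA and the TATA box TATAAA.
Acsl1 upstream window: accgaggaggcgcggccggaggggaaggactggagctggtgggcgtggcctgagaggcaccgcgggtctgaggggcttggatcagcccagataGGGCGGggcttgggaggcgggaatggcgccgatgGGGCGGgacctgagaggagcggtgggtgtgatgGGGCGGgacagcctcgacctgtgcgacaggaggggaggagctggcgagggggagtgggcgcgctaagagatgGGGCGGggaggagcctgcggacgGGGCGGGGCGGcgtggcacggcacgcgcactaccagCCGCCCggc
Acsl1 downstream window: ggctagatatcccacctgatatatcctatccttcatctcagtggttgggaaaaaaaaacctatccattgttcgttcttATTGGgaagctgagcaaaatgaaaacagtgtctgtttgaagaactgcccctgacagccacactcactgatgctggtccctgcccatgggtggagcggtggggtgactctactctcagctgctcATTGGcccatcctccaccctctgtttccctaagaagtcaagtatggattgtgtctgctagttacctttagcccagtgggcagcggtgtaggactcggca
Cd36 window: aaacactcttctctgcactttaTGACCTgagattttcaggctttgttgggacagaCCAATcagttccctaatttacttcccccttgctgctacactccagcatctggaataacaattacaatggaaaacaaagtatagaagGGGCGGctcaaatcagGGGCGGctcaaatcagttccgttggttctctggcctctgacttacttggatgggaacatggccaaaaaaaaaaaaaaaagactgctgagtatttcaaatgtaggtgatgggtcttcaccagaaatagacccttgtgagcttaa
Acsl4 window: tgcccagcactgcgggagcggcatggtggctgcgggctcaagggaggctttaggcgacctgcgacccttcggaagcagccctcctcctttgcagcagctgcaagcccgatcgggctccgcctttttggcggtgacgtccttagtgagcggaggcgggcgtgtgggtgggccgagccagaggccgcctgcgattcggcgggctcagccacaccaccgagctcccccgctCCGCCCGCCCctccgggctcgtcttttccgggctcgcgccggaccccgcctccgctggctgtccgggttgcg
The upstream *Acsl1* window held 7 GC boxes and no CCAAT box, whereas the downstream one held 2 CCAAT boxes and no GC box. The *Cd36* window held 2 GC boxes, 1 CCAAT box and 1 AGGTCA, the only AGGTCA in the 10 windows, and the *Acsl4* window held 2 overlapping GC boxes. No TATAAA was found in any of the 10. Among all 32851 windows of the same length, 35.7% held a GC box, 37.4% a CCAAT box, 16.3% the nuclear receptor motif and 13.6% the TATA box, so that each of these matches is common. Guanine and cytosine made up 74% of the upstream *Acsl1* window, 50% of the downstream one, 43% of the *Cd36* window and 71.7% of the *Acsl4* window, beside a median of 52.7% over all windows. A match is a stretch of letters and was not tested for binding.

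RNA was read from the 3′ end of transcripts, so that a transcript gives reads in number and not in proportion to its length. Levels in counts per 1000000 counts of the library (CPM) can then be set side by side between genes, as far as their reads align at a single place. Total gene counts ran from 1880561 to 3985656 per library, and 3 counts, taken as the floor, corresponded to 0.753 to 1.60 CPM. The FAP markers *Pdgfra* and *Col1a1* were present in all libraries. *Ly6a*, which encodes SCA-1, was lower in SCA1-High-FAPs after culture, at 711 ± 184 against 1087 ± 58.8 CPM (SD, n = 4; adjusted p = 0.0341 in edgeR), in the opposite direction to the sort, and was called in 1 of the 8 fits that left out a library. In bulk RNA, fewer cells of a type and less RNA per cell cannot be told apart.

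*Lpl*, *Cd36*, *Fabp5* and *Acsl1* were higher in SCA1-High-FAPs than in SCA1-Low-FAPs, at 5.6-fold, 7.01-fold, 1.67-fold and 4.39-fold. A gene was called when its adjusted p (edgeR's quasi-likelihood test, Benjamini-Hochberg over all genes tested) was below 0.05 and its log2 fold change, SCA1-High over SCA1-Low, was beyond 0.5 in size. By this rule 4 of the 9 genes that passed the filter on low counts were called, all higher in SCA1-High-FAPs. Among all 10181 genes tested, 7.68% were called, 4.36% as higher in SCA1-High-FAPs and 3.32% as higher in SCA1-Low-FAPs. None of the 9 was called lower by edgeR or by DESeq2, while at an unadjusted p below 0.05 edgeR placed 5 higher and 1, *Acsl4*, lower in SCA1-High-FAPs. That unadjusted threshold was passed by 2164 of the 10181 genes tested, in either direction. Over the 9 genes the log2 fold change had a median of 0.74, and over all genes tested of 0.00. In 5 of the 10 genes (*Lpl*, *Cd36*, *Slc27a1*, *Fabp4* and *Acsl1*) all 4 SCA1-High-FAP libraries lay above all 4 SCA1-Low-FAP libraries, 4 of them among the 9 tested, a pattern seen in 7.46% of all genes tested. The reverse, found in 6.67% of genes, occurred in none of the 10. DESeq2, run as an alternative, called 6 of the 10 genes, adding *Slc27a1* and *Fabp4*, beside 8.53% of the genes to which it gave an adjusted p.

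**Figure D1:**
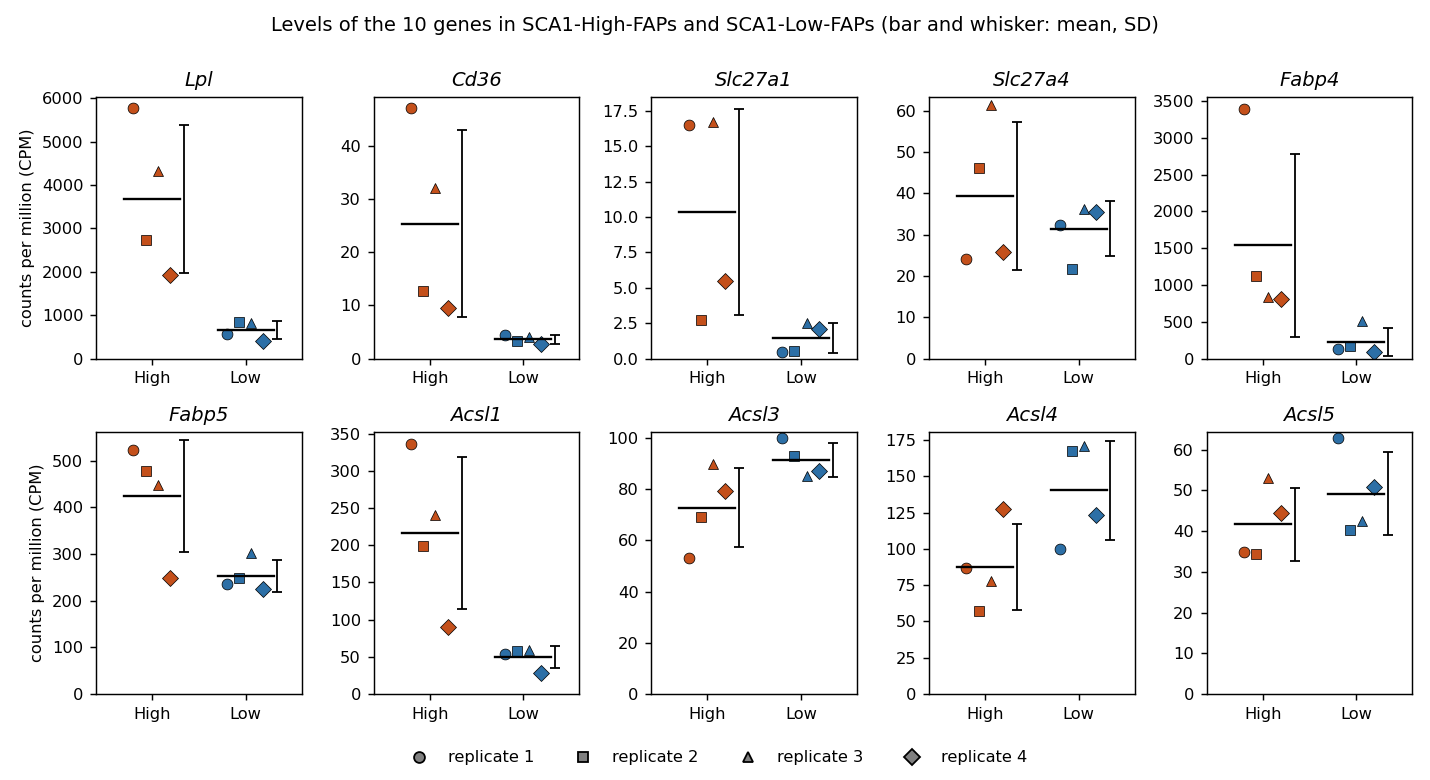
Level of each of the 10 genes in CPM (vertical axis, starting at 0, own scale per gene) in the 4 SCA1-High-FAP (orange) and 4 SCA1-Low-FAP (blue) libraries, with marker shapes for the replicate number, a bar for the mean and a whisker for the SD. *Lpl*, *Cd36*, *Slc27a1*, *Fabp4* and *Acsl1* do not overlap between the groups, and the other 5 do.

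*Lpl*, which encodes the lipase that frees fatty acids from lipoproteins, was the most abundant of the 10 genes in every library. It stood at 5770, 2723, 4317 and 1925 CPM in SCA1-High-FAPs 1 to 4 and at 567, 850.5, 816 and 398 CPM in SCA1-Low-FAPs 1 to 4. Every SCA1-High library was above every SCA1-Low library, with the first the highest and the fourth the lowest of the SCA1-High libraries. The group means of 3684 ± 1709 and 658 ± 214 CPM (SD, n = 4) differed by 2.49 on the log2 scale (SE 0.39, 95% interval 1.60 to 3.37, adjusted p = 0.00704). By mean level *Lpl* ranked 16th of the 10181 genes tested in SCA1-High-FAPs but 193rd in SCA1-Low-FAPs. It was called in all 8 fits that left out a library, with log2 fold changes of 2.18 to 2.70. *Lpl* alone held 59.98% of the summed CPM of the 10 genes in SCA1-High-FAPs, against 43.8% in SCA1-Low-FAPs.

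The genes that control lipoprotein lipase or handle the same lipoproteins were taken as a list of 16, of which 13 had counts and 9 were tested. Of these 9, 2 were called higher in SCA1-High-FAPs, none lower, and 7 were not called. At an unadjusted p below 0.05 edgeR placed 1 lower, *Lrp1*, and DESeq2 called none lower. Of the genes called, *Apoe*, the apolipoprotein by which remnant particles bind their receptors, stood at 1054, 467, 1523 and 321 CPM in SCA1-High-FAPs, against 65.3, 40.3, 114 and 28.8 CPM in SCA1-Low-FAPs. The 2 groups did not overlap, and the log2 fold change was 3.75 (SE 0.71, adjusted p = 0.0278). The other gene called, *Angptl4*, a secreted inhibitor of lipoprotein lipase, was at 43.8, 40.2, 88.5 and 47.7 CPM against 17.9, 14.7, 43.1 and 20.6 CPM, so that the third SCA1-Low library lay within the range of SCA1-High-FAPs. Its log2 fold change was 1.17 (SE 0.34, adjusted p = 0.0447). *Gpihbp1*, the endothelial anchor of the lipase, had 1 count over the 8 libraries, and the regulators of lipase activity *Apoc2* and *Apoc3* had none. *Lrp1*, a receptor for lipoprotein remnants, was at 316 ± 43.2 and 424 ± 15.02 CPM, without overlap (log2 fold change −0.42, adjusted p = 0.0759 in edgeR and 0.0404 in DESeq2). Its fold change was within the threshold of 0.5. *Sel1l*, which helps the lipase leave the endoplasmic reticulum, was at 211 ± 17.1 and 209 ± 14.98 CPM (log2 fold change 0.01, adjusted p = 0.977).

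Among the proteins of the plasma membrane, *Cd36* was higher in SCA1-High-FAPs while *Slc27a4* was not called. *Cd36*, the scavenger receptor that binds long-chain fatty acids and oxidised lipoproteins, had 47.1, 12.7, 32.1 and 9.53 CPM in SCA1-High-FAPs 1 to 4 against 4.35, 3.27, 4.12 and 2.64 CPM in SCA1-Low-FAPs 1 to 4. The lowest SCA1-High library was above the highest SCA1-Low library, although the level was modest in both groups and rested on 26 to 100 counts and on 6 to 13 counts per library. The log2 fold change was 2.81 (SE 0.51, 95% interval 1.74 to 3.87, adjusted p = 0.00254), the 47th largest towards SCA1-High-FAPs of 10181. *Cd36* was called in all 8 fits that left out a library, with log2 fold changes of 2.32 to 3.09.

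*Slc27a1*, which encodes the fatty acid transport protein FATP1 of fat and muscle, had too few counts for the filter and was described by its counts. There were 35, 6, 40 and 15 counts in SCA1-High-FAPs 1 to 4 and 1, 1, 8 and 8 counts in SCA1-Low-FAPs 1 to 4, or 16.5, 2.71, 16.7 and 5.50 CPM against 0.483, 0.545, 2.54 and 2.11 CPM. The groups did not overlap, but the second SCA1-High library was only just above the third SCA1-Low library. On the scale of log2 CPM with a prior count of 2 the difference was 2.17 (two-sided exact permutation p = 0.0286, the lowest value possible with 70 arrangements of the labels). The same exact permutation test gave p = 0.0286 without any 1 of the SCA1-High libraries and p = 0.0571 without any 1 of the SCA1-Low libraries, with differences of 1.95 without the first, 1.97 without the second, 2.41 without the third and 2.34 without the fourth. DESeq2, which needs no such filter, gave a log2 fold change of 2.77 (adjusted p = 0.00645). *Slc27a1* passed the edgeR filter in 5 of the 8 fits that left out a library. It was called without SCA1-High-FAPs 2 (adjusted p = 0.0156) and without SCA1-Low-FAPs 3 (0.0264), and was not called without SCA1-Low-FAPs 1, 2 or 4 (0.0896, 0.0711 and 0.0647).

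*Slc27a4*, which encodes FATP4, a transport protein found in many tissues, stood at 24.0, 46.1, 61.4 and 25.7 CPM in SCA1-High-FAPs, against 32.4, 21.8, 36.2 and 35.4 CPM in SCA1-Low-FAPs. The ranges overlapped widely, and the SCA1-High libraries fell on both sides of the SCA1-Low ones. The log2 fold change of 0.31 (SE 0.30, adjusted p = 0.612) had a 95% interval from −0.32 to 0.95. Of the counts shared by the 2 transport proteins, *Slc27a1* held 21.3% ± 14.6 in SCA1-High-FAPs, against 4.03% ± 2.45 in SCA1-Low-FAPs (SD, n = 4). These shares overlapped between the groups, from 5.56% (95% Wilson interval 2.57 to 11.6%) to 40.7% (30.9 to 51.3%) in SCA1-High-FAPs and from 1.47% (0.260 to 7.87%) to 6.56% (3.36 to 12.4%) in SCA1-Low-FAPs. Such intervals cover counting error only, since reads without molecular identifiers are not independent molecules.

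Caveolae and the proteins that route CD36 to the surface formed a list of 11 genes, all of them tested, of which 1 was called higher in SCA1-High-FAPs and 10 were not called. At an unadjusted p below 0.05 edgeR placed 3 higher and none lower. These were the called gene, *Cavin3* (log2 fold change 0.42, adjusted p = 0.0991, without overlap) and *Cav2* (0.78, adjusted p = 0.164, with overlap). The called gene, *Tbc1d4*, a Rab GTPase-activating protein of insulin-dependent vesicle traffic, was at 22.6, 12.7, 19.6 and 20.2 CPM against 8.70, 5.45, 6.34 and 9.24 CPM, without overlap (log2 fold change 1.32, SE 0.37, adjusted p = 0.0340). *Cavin1*, a coat protein of caveolae, stood at 1325 ± 316 and 1296 ± 297 CPM (adjusted p = 0.949), and *Rab14*, a small GTPase of endosomal traffic, at 411 ± 50.1 and 405 ± 39.6 CPM (adjusted p = 0.962). Their log2 fold changes were 0.03, with a 95% interval of −0.36 to 0.42, and 0.02, with a 95% interval of −0.28 to 0.32.

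Of the binding proteins, *Fabp5* was called and *Fabp4* was not, although the fold of *Fabp4* was the larger. *Fabp4*, the binding protein of adipocytes that is also made by macrophages and capillary endothelium, stood at 3391, 1122, 842 and 803 CPM in SCA1-High-FAPs 1 to 4 and at 135, 165, 508 and 90.0 CPM in SCA1-Low-FAPs 1 to 4. The groups did not overlap, but the first SCA1-High library was far above the rest and the third SCA1-Low library stood well above the others of its group. The means were 1540 ± 1242 and 224 ± 192 CPM (SD, n = 4), and the log2 fold change of 2.77 (SE 0.80, 95% interval 0.84 to 4.70) had an adjusted p of 0.101. Without the third SCA1-Low library *Fabp4* was called, with a log2 fold change of 3.58 (SE 0.71, adjusted p = 0.0334). It was not called in the other 7 such fits, where the log2 fold change ran from 2.03, without the first SCA1-High library, to 2.99. DESeq2 gave 2.77 with an adjusted p of 0.00346.

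*Fabp5*, the epidermal type of the same protein family, which is made by many cells, was the more even of the pair. Its levels were 523, 478, 448 and 249 CPM in SCA1-High-FAPs 1 to 4 and 236, 249, 303 and 224 CPM in SCA1-Low-FAPs 1 to 4. SCA1-High-FAPs 1, 2 and 3 were above all of SCA1-Low-FAPs, and the fourth lay among them. The means of 424 ± 121 and 253 ± 34.5 CPM (SD, n = 4) gave a difference of 0.74 on the log2 scale (SE 0.20, 95% interval 0.33 to 1.16, adjusted p = 0.0269). The call depended on single libraries. It held without the fourth SCA1-High library (0.93, adjusted p = 0.00161) and without the third SCA1-Low library (0.85, adjusted p = 0.0159). The adjusted p rose to 0.0855, 0.0779 and 0.0585 without SCA1-High-FAPs 1, 2 and 3, and to 0.0962, 0.0757 and 0.0834 without SCA1-Low-FAPs 1, 2 and 4, with log2 fold changes of 0.62 to 0.73.

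The 2 genes lie on chromosome 3 (mm10), *Fabp5* on the forward strand at chr3:10012548-10016607 and *Fabp4* on the reverse strand at chr3:10204088-10208576, with *Fabp9* and *Fabp12* beside them. *Fabp9* had no count in any library and *Fabp12* had 4 counts in all. As a share of the counts of the pair, *Fabp4* held 86.6%, 70.1%, 65.3% and 76.3% in SCA1-High-FAPs 1 to 4 and 36.3%, 39.8%, 62.7% and 28.6% in SCA1-Low-FAPs 1 to 4. *Fabp4* was the larger of the pair in all 4 SCA1-High libraries and in 1 of the 4 SCA1-Low libraries, the third, whose share (95% Wilson interval 60.8 to 64.5%) was close to the lowest of SCA1-High-FAPs (63.6 to 66.9%). The mean shares were 74.6% ± 9.22 and 41.9% ± 14.6 (SD, n = 4). Reads aligned at several places were given to no gene, so any *Fabp5* reads shared with near-identical copies are missing from these shares. Of the other *Fabp* and *Slc27* genes, a list of 11, only 6 had a count and 1, *Slc27a3*, passed the filter and was not called. *Slc27a3*, another member of the transport family, was at 4.33 ± 2.29 and 11.2 ± 2.40 CPM, without overlap (log2 fold change −1.39, unadjusted p = 0.0120 and adjusted p = 0.0993 in edgeR, not called by DESeq2). *Fabp3*, the binding protein of heart and muscle fibres, was not tested, with 4, 2, 1 and 6 counts in SCA1-High-FAPs and 34, 9, 8 and 17 counts in SCA1-Low-FAPs.

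**Figure D2:**
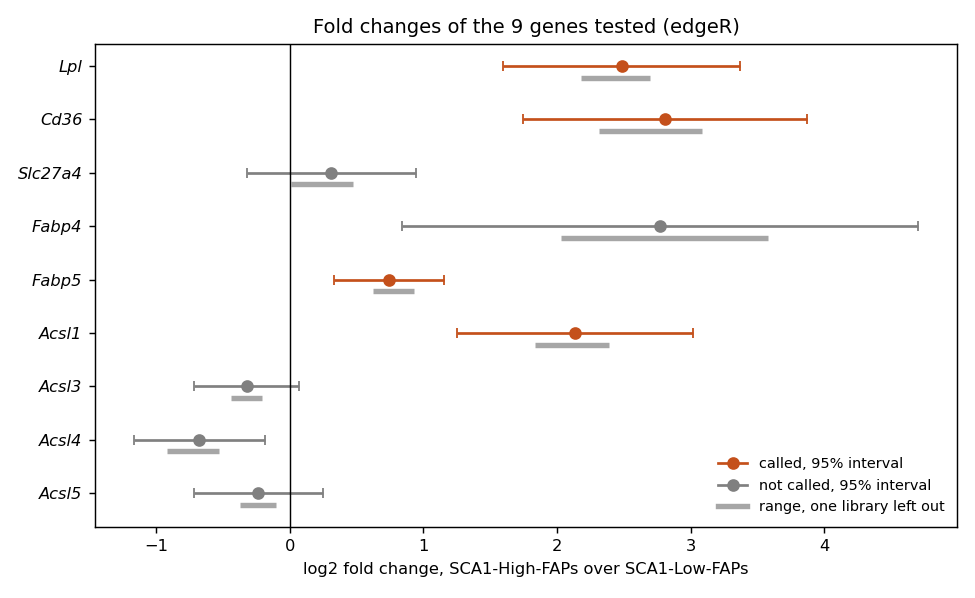
Log2 fold change, SCA1-High-FAPs over SCA1-Low-FAPs, of the 9 genes tested with edgeR: points with 95% intervals (orange if called, grey if not) and, below each, a grey band for the range over the 8 fits that left out a library. *Lpl*, *Cd36* and *Acsl1* lie beyond 2, *Fabp4* has the widest interval (0.84 to 4.70), and *Acsl3*, *Acsl4* and *Acsl5* lie below 0 without being called.

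Of the long-chain acyl-CoA synthetases, *Acsl1* was higher in SCA1-High-FAPs and the means of the other 3 were lower without reaching the threshold. *Acsl1*, the main synthetase of fat, heart and muscle, stood at 337, 199, 241 and 90.2 CPM in SCA1-High-FAPs 1 to 4 against 54.1, 57.7, 58.7 and 28.2 CPM in SCA1-Low-FAPs 1 to 4. No SCA1-Low library reached the lowest SCA1-High library, and the fourth replicate was the lowest of each group. The means were 217 ± 102 and 49.7 ± 14.4 CPM (SD, n = 4), with a log2 fold change of 2.13 (SE 0.39, 95% interval 1.25 to 3.02, adjusted p = 0.0114). *Acsl1* was called in all 8 fits that left out a library, with log2 fold changes of 1.83 to 2.39.

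*Acsl4*, which prefers arachidonic acid and other polyunsaturated fatty acids, went the other way in its means. It was at 87.1, 57.4, 78.1 and 128 CPM in SCA1-High-FAPs, against 100.1, 167, 171 and 123 CPM in SCA1-Low-FAPs. SCA1-High-FAPs 1, 2 and 3 lay below all of SCA1-Low-FAPs, and the fourth lay among them. The log2 fold change was −0.68 (SE 0.23, 95% interval −1.16 to −0.19) with an adjusted p of 0.0862. Without the fourth SCA1-High library *Acsl4* was called as lower (−0.92, adjusted p = 0.0191), as it was when genes with low counts were kept in the test (−0.69, adjusted p = 0.0134).

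*Acsl3*, a synthetase of the endoplasmic reticulum and of nascent lipid droplets, had 53.2, 69.2, 89.8 and 79.2 CPM in SCA1-High-FAPs, against 100.1, 93.1, 85.3 and 87.1 CPM in SCA1-Low-FAPs. The groups overlapped only through the third SCA1-High library (log2 fold change −0.32, SE 0.19, 95% interval −0.71 to 0.07, adjusted p = 0.341). *Acsl5*, a synthetase of mitochondria and endoplasmic reticulum that is abundant in intestine and liver, was at 34.8, 34.4, 53.0 and 44.4 CPM against 62.8, 40.3, 42.5 and 51.0 CPM. The ranges overlapped, and the log2 fold change of −0.24 (SE 0.23, adjusted p = 0.614) had a 95% interval of −0.72 to 0.25. Parts of *Acsl3* and *Acsl5* overlap other counted genes, *Utp14b* on the same strand with 344 counts and *Zdhhc6* on the opposite strand with 441 counts over the 8 libraries, and whether counting used strand was not given in the sources used here.

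The 4 synthetases together held 419 ± 81.4 CPM in SCA1-High-FAPs, against 331 ± 33.3 CPM in SCA1-Low-FAPs, and the 2 ranges, 341 to 512 and 290 to 358 CPM, overlapped. The make-up of that sum differed more. *Acsl1* gave 65.8%, 55.3%, 52.2% and 26.4% of the counts of the 4 genes in SCA1-High-FAPs 1 to 4 and 17.1%, 16.1%, 16.4% and 9.75% in SCA1-Low-FAPs 1 to 4. The fourth SCA1-High library (95% Wilson interval 23.7 to 29.3%) was well below the others of its group, but still above the SCA1-Low range. The mean share of *Acsl1* was 49.9% ± 16.7 against 14.8% ± 3.42, that of *Acsl4* 21.8% ± 10.4 against 42.1% ± 7.40, that of *Acsl3* 18.1% ± 5.43 against 27.9% ± 3.55 and that of *Acsl5* 10.2% ± 2.67 against 15.1% ± 4.22 (SD, n = 4). *Acsl1* was the most abundant of the 4 in SCA1-High-FAPs 1, 2 and 3. *Acsl4* took that place in SCA1-High-FAPs 4 as well as in SCA1-Low-FAPs 2, 3 and 4, and in SCA1-Low-FAPs 1 *Acsl3* and *Acsl4* had 207 counts each. Because the shares of one library add to the whole, a higher share of *Acsl1* lowers the others, and no test was made on shares.

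**Figure D3:**
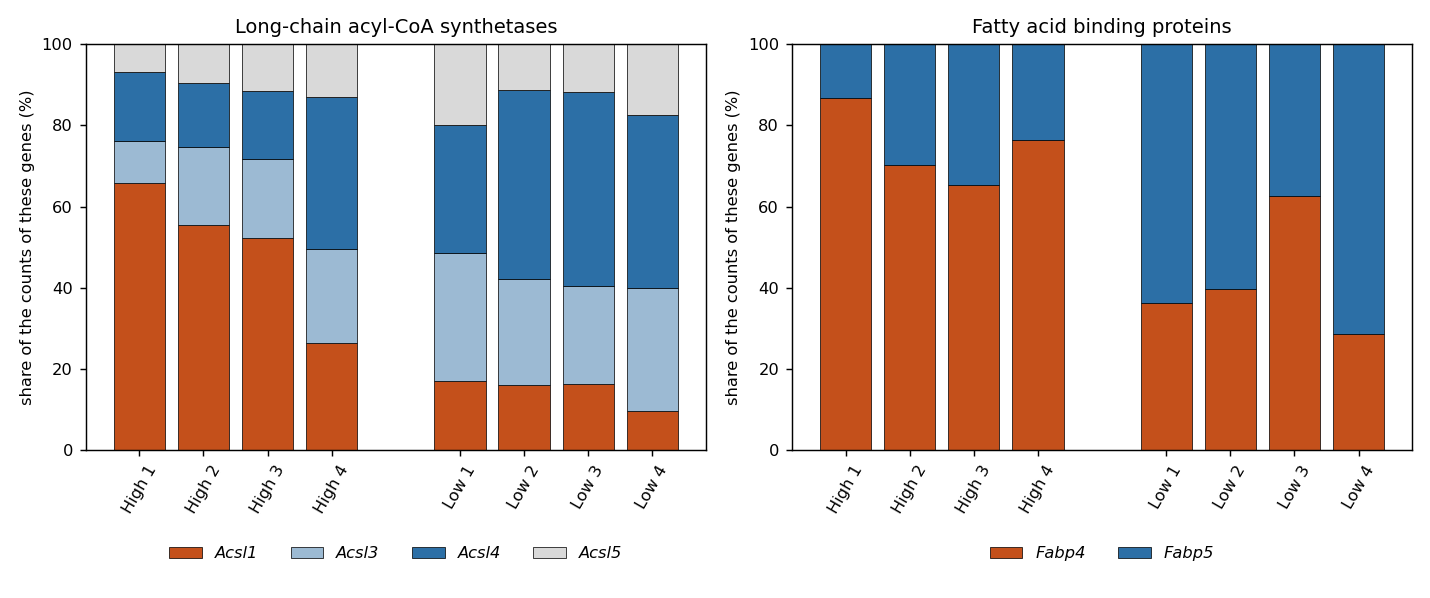
Share, in percent of the summed counts of each family, of *Acsl1*, *Acsl3*, *Acsl4* and *Acsl5* (left) and of *Fabp4* and *Fabp5* (right) in each of the 8 libraries (High, SCA1-High-FAPs; Low, SCA1-Low-FAPs). *Acsl1* fills 26.4 to 65.8% of the SCA1-High bars and 9.75 to 17.1% of the SCA1-Low bars, and *Fabp4* fills 65.3 to 86.6% and 28.6 to 62.7%. Reads aligned at several places are not counted.

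Beyond these 4, the list of other acyl-CoA synthetases held 11 genes, of which 10 had a count and 3 were tested, with none of the 3 called by edgeR or DESeq2 and none at an unadjusted edgeR p below 0.05. *Aacs*, which activates acetoacetate, was at 36.7 ± 17.6 and 29.8 ± 10.7 CPM (adjusted p = 0.711), and *Acsf3*, a mitochondrial synthetase of malonyl-CoA, at 8.89 ± 6.56 and 9.33 ± 4.18 CPM (adjusted p = 0.960). The proteins that bind acyl-CoA or hydrolyse it again formed a list of 16 genes with 13 tested, of which 1 was called lower in SCA1-High-FAPs, none higher, and 12 were not called. At an unadjusted p below 0.05 edgeR placed 2 higher, *Dbi* and *Acbd4*, and DESeq2 called none higher. The gene called was *Acot7*, a cytosolic thioesterase that splits acyl-CoA back into fatty acid and coenzyme A, at 25.9, 36.2, 20.9 and 12.8 CPM in SCA1-High-FAPs, against 79.8, 82.8, 38.7 and 82.4 CPM in SCA1-Low-FAPs. All SCA1-Low libraries were higher, the third only narrowly so, and the log2 fold change was −1.57 (SE 0.31, adjusted p = 0.00496). *Dbi*, which encodes the acyl-CoA binding protein, was at 756 ± 145 and 594 ± 31.0 CPM (log2 fold change 0.35, adjusted p = 0.197), and *Acbd3*, a Golgi protein of the same domain family, at 227 ± 29.3 and 267 ± 13.7 CPM (log2 fold change −0.24, adjusted p = 0.361).

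Over the 5 lists of neighbouring genes, 37 were tested and 4 were called (*Apoe*, *Angptl4*, *Tbc1d4* and *Acot7*), 10.8% beside 7.68% of all genes tested, and their median log2 fold change was 0.01. An unadjusted edgeR p below 0.05 was reached by 11 of the 37, beside 2164 of the 10181 genes tested. *Acot7* was called in all 8 fits that left out a library. *Apoe* was called in 3, *Angptl4* in 2 and *Tbc1d4* in 1 of these fits. The number called over the 5 lists fell to 1 without SCA1-High-FAPs 1 or 3 and without SCA1-Low-FAPs 1 or 4, and to 2 without the second SCA1-Low library.

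**Figure D4:**
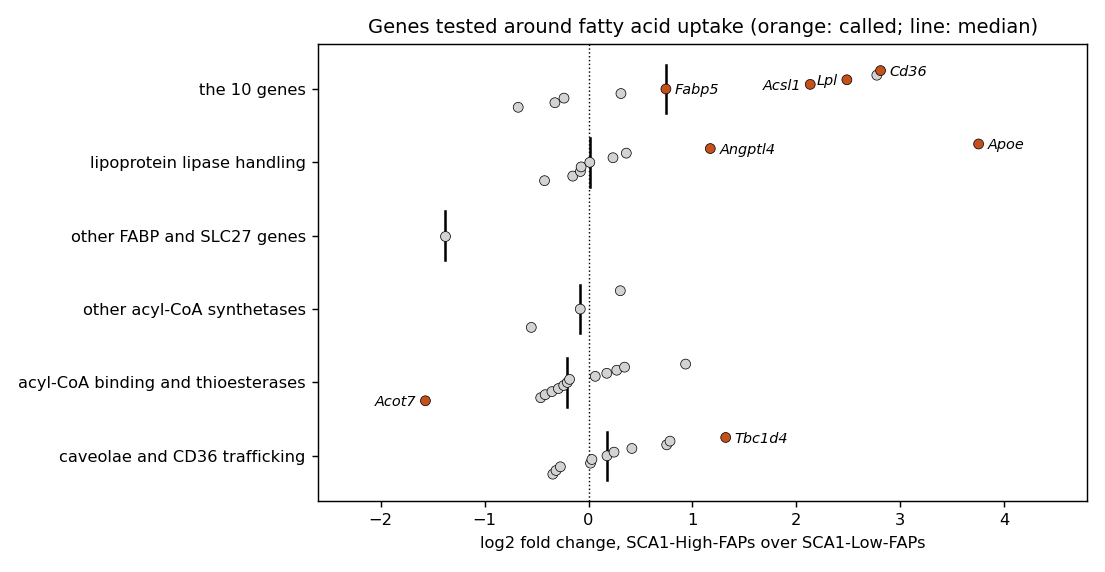
Log2 fold change, SCA1-High-FAPs over SCA1-Low-FAPs, of each gene tested among the 10 genes and in the 5 lists around them (1 point per gene, orange if called by edgeR and then named, grey if not, a vertical line for each median). The median of the 10-gene set, over the 9 tested, is 0.74, and *Acot7* at −1.57 is the only called gene below 0.

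The libraries of a group did not rank alike for all genes. *Lpl*, *Cd36*, *Fabp4*, *Fabp5* and *Acsl1* were each highest in SCA1-High-FAPs 1 and lowest in SCA1-High-FAPs 4, by factors of 2.997, 4.94, 4.22, 2.10 and 3.73 between these libraries. *Slc27a4*, *Slc27a1*, *Acsl3* and *Acsl5* were highest in the third and *Acsl4* in the fourth. Among SCA1-Low-FAPs the same 5 genes were lowest in the fourth library, and 6 of the 10 genes were highest in the third (*Slc27a1*, *Slc27a4*, *Fabp4*, *Fabp5*, *Acsl1* and *Acsl4*). The spread within SCA1-High-FAPs, as SD in percent of the mean, was 80.7% for *Fabp4*, 69.4% for *Cd36*, 46.4% for *Lpl* and 47.1% for *Acsl1*, beside 28.5% for *Fabp5* and 21.3% for *Acsl5*.

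Markers of adipocytes also differed between the groups. The summed level of 12 adipocyte markers was 4194, 1756, 3864 and 803 CPM in SCA1-High-FAPs 1 to 4 and 311, 414, 430 and 224 CPM in SCA1-Low-FAPs 1 to 4, without overlap. Within SCA1-High-FAPs the sum took the same order of libraries as *Lpl*, *Cd36* and *Acsl1*, but not as *Fabp4* and *Fabp5*. Within SCA1-Low-FAPs it took the order of *Acsl1*, *Fabp4* and *Fabp5*, but not that of *Lpl* and *Cd36*. Of 9 adipocyte markers tested by edgeR, 6 were called higher in SCA1-High-FAPs (*Adipoq*, *Lipe*, *Cebpa*, *Retn*, *Adrb3* and *Car3*), 3 were not called (*Plin1*, adjusted p = 0.0751, *Pparg*, 0.115, and *Cfd*, 0.0534), and *Pck1* had no count. DESeq2 called 10 of the markers higher, these 9 and *Cidec*. *Cebpa*, *Retn* and *Adrb3* were called in all 8 fits that left out a library, *Lipe* and *Car3* in 3 and *Adipoq* in 2. Without the filter on low counts edgeR did not call *Lipe* (adjusted p = 0.0622). The part of the adipocyte markers in the differences of the 10 genes was not tested. Markers of other cell types, some known to express *Cd36*, *Lpl* or *Fabp4*, were read too, and their part in these differences was not tested. Of the endothelial markers, *Pecam1* and *Cdh5* had no count in SCA1-High-FAPs and 17 and 11 counts in SCA1-Low-FAPs, *Emcn*, *Tie1* and *Cldn5* had none at all, *Tek*, with the most counts of the list (53), was at 4.10 ± 2.24 against 1.07 ± 1.25 CPM with overlap and was not tested by edgeR (DESeq2 adjusted p = 0.316), and 8 endothelial markers summed to 1.83 to 7.10 CPM in SCA1-High-FAPs, against 0.483 to 7.39 CPM in SCA1-Low-FAPs. Of the macrophage markers, *Adgre1*, *Itgam* and *Fcgr1* had no count and *Ptprc* had 1, while *Lyz2* was called higher in SCA1-High-FAPs (28.7 ± 9.02 against 10.5 ± 3.68 CPM, adjusted p = 0.0153). The 8 macrophage markers summed to 26.7 to 48.4 CPM in SCA1-High-FAPs and 18.0 to 24.1 CPM in SCA1-Low-FAPs, without overlap. Most of that sum was *Lyz2*, with 389 counts over the 8 libraries, against 90 for *Csf1r*, 61 for *Cd14* and 33 for *Cd68*. *Lyz2* was the only 1 of the 8 tested by edgeR, so the sum does not speak for the list as a whole. The myogenic markers *Pax7*, *Myod1* and *Myf5* had no count, with a sum of at most 6.59 and 15.2 CPM over 8 myogenic markers. Pericyte markers summed to 19.4 to 41.0 and 18.1 to 40.1 CPM, with *Notch3* called higher and *Cspg4* lower in SCA1-High-FAPs by edgeR, in 1 and 2 of the 8 fits that left out a library. Without the filter on low counts *Notch3* was not called (adjusted p = 0.0866). Schwann cell markers summed to 16.5 to 58.5 and 7.62 to 11.6 CPM, without overlap, and the 1 marker that edgeR tested, *S100b*, was not called by either tool. *Ngfr*, below the edgeR filter, was called higher in SCA1-High-FAPs by DESeq2 (14.8 ± 16.5 against 0.651 ± 0.601 CPM, adjusted p = 0.000111) and in the 5 edgeR fits without 1 library in which it passed the filter, and the part of these markers in the differences of the 10 genes was not tested. FAP markers summed to 13245 to 16176 and 8515 to 14236 CPM, with *Dcn* and *Col3a1* called higher, *Ly6a* and *Thy1* lower and 5 not called. *Thy1* was called in 7, *Dcn* in 6 and *Col3a1* in 2 of the 8 fits that left out a library. Without the filter on low counts edgeR did not call *Col3a1* (adjusted p = 0.0932).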

How the data were processed

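The authors made 3′ mRNA libraries (QuantSeq), aligned reads to mm10 with STAR, counted uniquely aligned reads per gene with HTSeq and deposited raw read counts per gene, 1 file per sample. Reads aligned at more than one place (37.5 to 43.3% of reads per library) were given to no gene, so reads shared with near-identical copies, as *Fabp5* may have, were set aside, and the summary rows were left out here. Of 31053 gene identifiers, 30934 matched GENCODE M21. The deposited counts were tested with edgeR 4.0.16 (R 4.3.3) by robust quasi-likelihood fits, TMM scaling and a filter of 10 counts (15 in total), which kept 10181 genes. Genes were called at an adjusted p (Benjamini-Hochberg) under 0.05 and a log2 fold change beyond 0.5. Standard errors and 95% intervals come from the same fit and are not adjusted. Alternatives were DESeq2 1.42.0, RLE scaling, 2 other filters, a replicate block, a threshold of 0.01 and leaving out each library. The script was tested on simulated data. The 10 genes and the lists around them were chosen with earlier results of these data known; every called gene of a list was named, with the 2 uncalled ones with most counts. Markers of adipocytes, FAPs, endothelial cells, macrophages, myogenic cells, pericytes and Schwann cells were summed per library. Replicates of 1 group differed by more than sampling noise. The *p*-values set each difference against the spread between these samples, and the main fit held cell state only, without a term for mouse.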

Additional observations from a re-analysis of the deposited data

Results flagged for a closer look

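In 6 of 40 groups of 4 libraries examined (levels of the 10 genes and of the 4 called list genes, and the family shares), 1 library lay apart from the others by Dixon's ratio of gap to range. Chance alone flags about 1 in 20 groups, and the groups share libraries. *Fabp4* was at 3391 CPM in SCA1-High-FAPs 1. *Acsl1* was at 28.2 CPM in SCA1-Low-FAPs 4, where its share of the 4 synthetases was 9.75%. The share of *Acsl4* was 37.4% in SCA1-High-FAPs 4. *Angptl4* was at 88.5 CPM in SCA1-High-FAPs 3, and *Acot7* at 38.7 CPM in SCA1-Low-FAPs 3.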

How the results depend on the processing

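None of the 9 tested genes of the set changed direction under any alternative. Over all genes, 782 were called, and 307 at an adjusted p under 0.01. Leaving out a library gave 410 (without the fourth SCA1-Low library) to 1017 (without the third), with 417 without the first. Of the 10 genes, 4 were called, with 2 at 0.01, 6 with DESeq2, 6 without the filter, 3 when every sample needed 10 counts and 3 to 6 when a library was left out, the 6 without the third SCA1-Low library. The share called over all genes was 3.02% at 0.01, 8.53% with DESeq2, 6.63% without the filter and 8.77% when every sample needed 10 counts. It ran from 3.96% to 9.85% when a library was left out. Without the filter, and without SCA1-High-FAPs 4, 1 of the calls among the 10 genes was lower in SCA1-High-FAPs, *Acsl4*. Of the neighbouring genes, 4 were called, with 7 by DESeq2, 1 at 0.01 and 1 to 5 when a library was left out. The difference of *Slc27a1* ranged from 1.85 to 2.62 when a library was left out and was 2.63 with a prior count of 0.5. Both groups carry replicate numbers 1 to 4 and came from 4 mice, but which samples share a mouse was not given in the sources used here. Deviations of same-numbered samples correlated at −0.02 on average (r from −0.05 to 0.01), and 0 of 4 correlated best with its own number. The numbers were therefore not taken as pairs, though this correlation over all genes tested cannot show which samples share a mouse. A replicate block gave 697 calls over all genes, 4 of the 10 genes and 3 of the neighbouring genes. With it the SE fell from 0.39 to 0.24 for *Lpl* (adjusted p = 0.00013) and from 0.39 to 0.20 for *Acsl1* (0.00012). The SE fell less for *Cd36* (0.51 to 0.44, adjusted p = 0.0033), *Fabp4* and *Fabp5*. It rose for *Slc27a4*, *Acsl3*, *Acsl4* and *Acsl5*. Of the genes named as called, it ended the calls of *Tbc1d4* (adjusted p = 0.0566), *Ly6a* (0.0573) and *Notch3* (0.0955) and no other. Of the adipocyte markers that edgeR tested and did not call, the block called *Plin1* (adjusted p = 8.3e-05) and *Cfd* (0.0018) but not *Pparg* (0.168). Depth limits *Slc27a1*, with 1 count in SCA1-Low-FAPs 1 and 2, and the genes that were not tested.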

Other observations

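Chosen after their values were seen, 3 neighbouring genes with too few counts for the edgeR filter were called by DESeq2 over all genes. *Acss3*, a mitochondrial short-chain acyl-CoA synthetase, stood at 14.1, 9.04, 10.9 and 2.57 CPM in SCA1-High-FAPs and at 0, 0, 2.22 and 0.528 CPM in SCA1-Low-FAPs (DESeq2 adjusted p = 0.00194). *Apoc1*, an apolipoprotein whose gene neighbours *Apoe*, stood at 7.06, 6.33, 7.52 and 1.83 CPM against 0, 0, 1.59 and 1.06 CPM (DESeq2 adjusted p = 0.0307). *Fabp3* was lower in SCA1-High-FAPs, at 1.35 ± 0.832 against 7.09 ± 6.31 CPM (SD, n = 4; DESeq2 adjusted p = 0.0494), with its highest SCA1-Low library at 16.4 CPM.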
